A study of Mus musculus with 10 samples.

Results

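The genes described here are 31 genes of DNA repair and the replication checkpoint, taken as a named list from the 23924 usable gene symbols in each of 2 deposited expression tables. The list holds 14 genes of homologous recombination, 6 Fanconi genes, the mismatch repair gene Msh6, the postreplication repair gene Rad18 and 9 checkpoint genes, and all 31 are present in both tables. RNA was sequenced from mouse pancreatic tumours that had been transplanted into the pancreas of athymic nude mice, hosts that lack a thymus. The 2 tumour models are called KrasT and MycT in the labels. For each, tumours of mice that drank doxycycline at 100 ug/ml with 2.5% sucrose for 2 weeks were compared with tumours of mice given no doxycycline. There were 2 doxycycline and 2 untreated MycT tumours, and 3 doxycycline and 3 untreated KrasT tumours. The study asks what remains of these tumours when their driving oncogene is off, and doxycycline is the agent that controls tetracycline-regulated transgenes. The labels give neither the alleles, the promoter of the transgene nor the age of the hosts. Each library carries its own animal number, but the labels do not say whether transplants of 1 model came from the same donor tumour or line, so p-values measure the spread between these samples only. No sucrose is named for untreated mice, so its effect and that of the drug itself cannot be told apart from loss of the oncogene.

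Homologous recombination repairs broken chromosomes by copying the sister chromatid, and BRCA1, BARD1, PALB2 and BRCA2 act together in it. The Fanconi proteins unhook crosslinks between DNA strands, mismatch repair corrects copying errors, and the kinases ATM, ATR, CHEK1 and CHEK2 hold the cell cycle while damage or stalled forks persist. In dividing cells many of these genes are transcribed mainly as DNA synthesis begins, in part through E2F transcription factors, whereas ATM, RAD50 and NBN are generally present throughout the cycle.

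Expression is given in FPKM (fragments scaled by transcript length and by the mapped total), so levels of different genes are comparable per length. Read totals are not given. The steps between low values gave relative depths of 1.0 to 1.573 across KrasT libraries and 0.621 to 1.0 across MycT libraries. Total FPKM was lower after doxycycline in both models, 546008 and 557227 against 1126800 and 1517332 in MycT and 513949 to 569272 against 789672 to 1018968 in KrasT. Across genes, untreated KrasT replicate 1 correlated less with replicates 2 and 3 (Pearson r = 0.911 and 0.919) than these did with each other (r = 0.982). MycT doxycycline replicate 2 and KrasT doxycycline replicate 1 held the ribosomal RNA precursor Rn45s at 20880 and 17238.5 FPKM, against at most 2231 elsewhere. An untreated MycT column carries an animal number that matches no label, and it is called the unnumbered library below. Keratin and other ductal epithelium genes, the defining markers of a pancreatic duct carcinoma, were present in all libraries, with a summed level of 2847 and 3557 FPKM in doxycycline and 534 and 2389 FPKM in untreated MycT tumours. In KrasT the sum was 4552 to 7696 FPKM after doxycycline and 5717 to 23800 FPKM without it. Much of it was Spp1, with 4209, 5604 and 3783 FPKM after doxycycline and 2961, 4409 and 3940 FPKM untreated in KrasT. Krt8 had 88.2, 365 and 313 FPKM in KrasT doxycycline libraries and 680.5, 4627 and 2003 FPKM in untreated ones, and the median change of the 12 ductal genes was -1.81 in KrasT and 1.23 in MycT. Epcam was at 7.22 FPKM in untreated KrasT replicate 1, against 375 and 530.2 FPKM in replicates 2 and 3. In MycT, Spp1 had 1349 and 1882 FPKM after doxycycline and 9.46 and 643 FPKM in untreated replicate 2 and the unnumbered library. Muc1, Cldn4 and Krt7 had 0.956, 2.68 and 6.24 FPKM in untreated MycT replicate 2, against 76.0, 112 and 105 FPKM in the unnumbered library. Of the 12 ductal genes only Krt18 was higher in that replicate, at 193 against 184.5 FPKM.

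The first comparison asks how the repair genes differed between doxycycline and untreated MycT tumours. In MycT, 30 of the 31 genes had lower values in both doxycycline libraries than in either untreated library, and Fancc alone had higher ones. Group means were between 1.34-fold (Rad50) and 18.0-fold (Rad51ap1) lower after doxycycline for these 30 genes, with a median over all 31 genes of 4.55-fold. Across all genes with a nonzero value, 25.5% had doxycycline values wholly below the untreated ones and 31.1% wholly above. The groups hold 2 libraries each, so the exact test of a single gene could not go below p = 0.333, and limma was used because it borrows information on the spread from other genes.

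**Figure D1:**
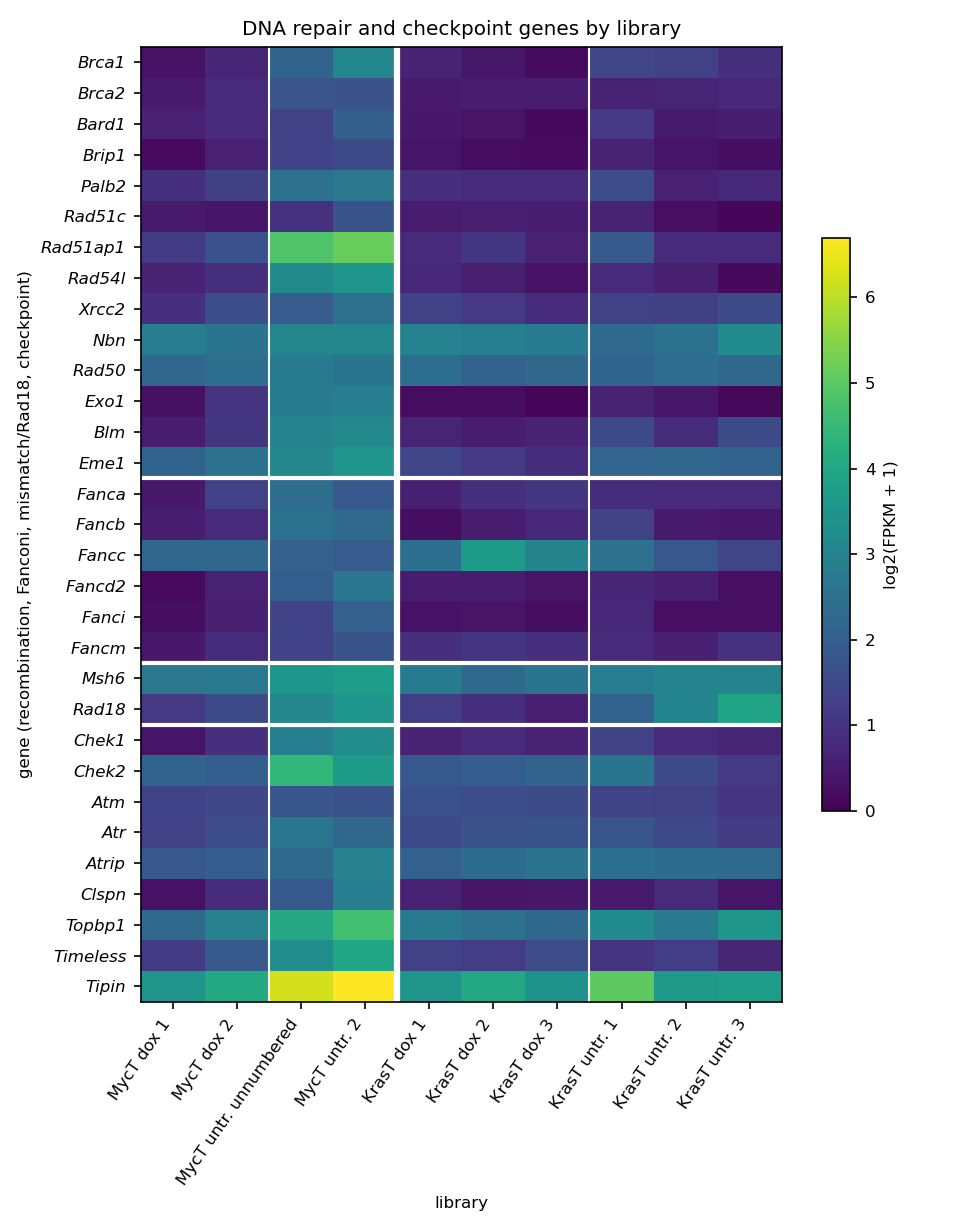
Heat map of log2(FPKM + 1) for the 31 genes (rows, grouped by role, white lines between roles) in the 10 libraries (columns, doxycycline left of untreated within each model). The 2 untreated MycT libraries are brighter than the others for most genes, while Nbn, Rad50 and Atm differ less between columns.

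Of the 31 genes, 30 reached the filter of 1 FPKM in at least 2 MycT libraries and were tested. In 11 of these 30 no doxycycline library reached 1 FPKM (Bard1, Brca1, Brca2, Brip1, Chek1, Clspn, Fancb, Fancd2, Fanci, Fancm and Rad54l), so they passed the filter only through the untreated group and had to differ. Rad51c did not pass the filter. On log2(FPKM + 1), the scale of all changes below, the MycT fit with limma called 0 of the 30 genes, with 0.0312% of all 12834 tested genes called lower and 0.00779% higher. At an unadjusted p under 0.05, 22 of the 30 were lower, against 17.6% of all genes tested. A joint limma fit of all 10 libraries estimates 1 spread for both models. Part of that spread comes from KrasT libraries, where 14 of the 31 genes reached 1 FPKM in at least 3 libraries. A pseudocount of 1 narrows the spread of low values. The joint SE was smaller than that of the MycT fit for some genes (Brca2, 0.25 against 0.34) and larger for others (Rad18, 0.54 against 0.38). The joint fit called 20 of the 30 as lower and 0 as higher, where 12.9% of all genes were called lower and 8.2% higher. Of these 20 genes, 9 had no doxycycline library at 1 FPKM. This joint count was 6 without doxycycline replicate 1 and 13 without doxycycline replicate 2, where 4.12% and 4.81% of all genes were called lower. It was 11 without untreated replicate 2 and 17 without the unnumbered library, where 7.11% and 9.87% of all genes were. Blm, Chek1, Exo1, Fancd2, Rad51ap1 and Rad54l, 6 genes in all, stayed called whichever of the 10 libraries was left out, but Chek1, Fancd2 and Rad54l are among those that entered the test only through the untreated group. Of these 6, Blm and Exo1 had 1 doxycycline library each at 1 FPKM or more (1.13 and 1.04 FPKM), so they also needed an untreated library to pass the filter. The median change of all 31 genes without a filter was -1.27, against 0.05 for all genes with a nonzero value.

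Of the 13 recombination genes tested in MycT, 8 passed the joint limma fit as lower, against 12.9% of all genes. Rad51ap1, whose product helps to pair DNA strands, had 1.27 and 2.19 FPKM in the 2 doxycycline libraries, against 34.3 and 28.0 FPKM in untreated replicate 2 and the unnumbered library. Rad54l, a motor protein that moves along DNA and remodels it during strand exchange, had 0.566 and 0.857 FPKM after doxycycline and 10.6 and 7.99 FPKM untreated. The doxycycline values of both genes lay far below the untreated ones. Their log2 changes were -3.57 ± 0.37 and -2.58 ± 0.35 (SE, MycT libraries only). For each, limma gave an adjusted p of 0.0638 with MycT libraries only and of 0.00453 when fitted jointly. Exo1, the exonuclease that trims broken ends and also serves mismatch repair, had 0.238 and 1.04 FPKM after doxycycline and 6.23 and 5.88 FPKM untreated (log2 change -2.15 ± 0.32 joint SE, joint limma adjusted p = 0.00558). Blm, a helicase that dissolves crossed DNA strands, had 0.414 and 1.13 FPKM after doxycycline and 7.89 and 6.92 FPKM untreated (-2.27 ± 0.34 joint SE, joint limma adjusted p = 0.00569). These 4 genes passed the joint fit, and none of the 4 passed with MycT libraries only. Rad54l entered the test only through the untreated group.

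Genes of the BRCA1 and BRCA2 complexes also had lower levels in doxycycline MycT tumours. Among them Brca1, Bard1, Brca2 and Brip1 entered the test only through the untreated group. Brca1 had 0.258 and 0.636 FPKM after doxycycline and 7.42 and 3.48 FPKM untreated, with a log2 change of -2.10 ± 0.37 (joint SE) and a joint limma adjusted p of 0.00809. Bard1, whose product forms a ubiquitin ligase with BRCA1, had 0.543 and 0.741 FPKM after doxycycline and 3.08 and 1.45 FPKM untreated. Its change of -0.95 did not pass the joint fit (limma adjusted p = 0.0775). Palb2, the bridge between BRCA1 and BRCA2, averaged 1.16 ± 0.343 FPKM after doxycycline and 4.96 ± 0.473 FPKM untreated (SD, n = 2 each). Brca2, a tumour suppressor of this pathway, averaged 0.582 ± 0.271 and 2.34 ± 0.0784 FPKM in doxycycline and untreated tumours (SD, n = 2 each), and Brip1, a helicase bound to BRCA1, 0.341 ± 0.266 and 1.67 ± 0.202 FPKM. Palb2, Brca2 and Brip1 passed the joint limma fit with adjusted p of 0.0230, 0.0186 and 0.0322, and the Brip1 call held in 4 of the 10 joint fits that left out a library. Xrcc2, which acts in strand exchange, had 0.894 and 2.04 FPKM after doxycycline and 4.64 and 2.79 FPKM untreated, and did not pass (joint limma adjusted p = 0.0813). Rad51c, which acts in the same step, had 0.403 and 0.314 FPKM after doxycycline and 2.34 and 0.923 FPKM untreated.

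The break-sensing genes Nbn and Rad50, whose products sit with MRE11 on broken ends, did not pass. Nbn had 5.99 and 4.92 FPKM in doxycycline and 7.43 and 7.30 FPKM in untreated MycT tumours, and Rad50 had 3.64 and 4.40 FPKM against 4.98 and 5.82 FPKM. Their changes were -0.38 ± 0.35 and -0.35 ± 0.27 (joint SE), with joint limma adjusted p of 0.461 and 0.384. Eme1, a subunit of a nuclease that cuts branched DNA, had 3.49 and 4.71 FPKM after doxycycline and 10.5 and 7.61 FPKM untreated (-0.98 ± 0.31 joint SE, joint limma adjusted p = 0.0538). Annotated genes Lrrc59 and Mrpl27 overlap the Eme1 locus, and the strand of counting is not given, so part of its value could come from them.

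Of the 6 Fanconi genes, 4 passed the joint limma fit as lower in MycT and 0 as higher, against 12.9% and 8.2% of all genes. Fancb, Fancd2, Fanci and Fancm entered the test only through the untreated group. Fancd2, the protein that is ubiquitinated when a crosslink is met, had 0.155 and 0.542 FPKM after doxycycline and 5.22 and 3.01 FPKM untreated (-1.90 ± 0.32 joint SE, joint limma adjusted p = 0.00722). Its partner Fanci had 0.197 and 0.513 FPKM after doxycycline and 3.16 and 1.52 FPKM untreated. Fanca and Fancb, subunits of the core complex that performs this ubiquitination, averaged 0.938 ± 0.785 and 0.619 ± 0.183 FPKM after doxycycline and 3.40 ± 1.17 and 4.32 ± 0.486 FPKM untreated (SD, n = 2 each). Fanci, Fanca and Fancb had joint limma adjusted p of 0.0268, 0.0428 and 0.0145, and the Fanca call held in 3 of the 10 joint fits that left out a library. Fancm, the translocase that anchors the core complex, had 0.376 and 0.840 FPKM after doxycycline and 2.35 and 1.53 FPKM untreated, and missed the threshold (joint limma adjusted p = 0.0601). Fancc, another core subunit, had 3.73 and 3.75 FPKM after doxycycline and 2.87 and 3.29 FPKM untreated, a change of 0.22 ± 0.47 (joint SE) that did not pass (joint limma adjusted p = 0.767) and that turned to -0.14 under quantile normalization. The loci of Fanca, Fancb, Fancd2 and Fanci each overlap another annotated gene of the tables, as do those of Rad54l, Msh6 and Atr.

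Among the checkpoint genes, 6 of 9 passed the joint limma fit as lower in MycT, against 12.9% of all genes. Chek1 and Clspn entered the test only through the untreated group. Chek1, the kinase that ATR activates at stalled forks, had 0.297 and 0.913 FPKM after doxycycline and 8.83 and 6.45 FPKM untreated (-2.44 ± 0.33 joint SE, joint limma adjusted p = 0.00453). Clspn, the adaptor claspin that brings CHEK1 to ATR, had 0.248 and 0.813 FPKM after doxycycline and 6.30 and 2.59 FPKM untreated (-1.77 ± 0.38 joint SE, joint limma adjusted p = 0.0148). The fork protection partners Timeless and Tipin were both lower. Timeless had 1.24 and 2.66 FPKM after doxycycline and 14.3 and 8.77 FPKM untreated, and Tipin, the most abundant of the 31 genes, had 10.2 and 15.8 FPKM after doxycycline and 103 and 74.4 FPKM untreated. Their changes were -2.10 ± 0.37 and -2.69 ± 0.50 (joint SE), with joint limma adjusted p of 0.00808 and 0.00947. Topbp1, the activator of ATR, had 3.96 and 6.51 FPKM after doxycycline and 24.5 and 15.4 FPKM untreated (joint limma adjusted p = 0.0178). Chek2, the kinase downstream of ATM, had 3.45 and 3.02 FPKM after doxycycline and 11.6 and 20.6 FPKM untreated (joint limma adjusted p = 0.0243). Each of these 6 genes had both doxycycline values below both untreated values, as did 30 of the 31 genes and 25.5% of all genes with a nonzero value.

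The kinases Atr and Atm at the top of the pathway did not pass. Atr had 1.48 and 1.99 FPKM after doxycycline and 3.68 and 5.17 FPKM untreated (-0.98 ± 0.31 joint SE, joint limma adjusted p = 0.0538). Its partner Atrip had 2.58 and 3.01 FPKM after doxycycline and 6.81 and 3.92 FPKM untreated (-0.71 ± 0.32 joint SE, joint limma adjusted p = 0.140). Atm had 1.53 and 1.69 FPKM after doxycycline and 2.23 and 2.45 FPKM untreated (-0.36 ± 0.26 joint SE, joint limma adjusted p = 0.358). With Atrip, none of these 3 genes passed, which does not show that their levels were alike. The mismatch repair gene Msh6 had 5.34 and 5.45 FPKM after doxycycline and 12.2 and 10.5 FPKM untreated (-0.94 ± 0.28 joint SE, joint limma adjusted p = 0.0419), a call that held in 1 of the 10 joint fits that left out a library. Rad18, the ubiquitin ligase that marks PCNA at stalled forks, had 1.14 and 1.90 FPKM after doxycycline and 10.5 and 7.65 FPKM untreated (-2.00 ± 0.54 joint SE, joint limma adjusted p = 0.0317), and its call held in 4 of the 10.

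The stretch around the transcription start is shown for the 3 genes with an E2F-like motif that had the largest falls in the MycT joint fit. It is also shown for Atrip, the gene with the smallest KrasT change among those tested there with a promoter in the table. The E2F-like motif searched was TTCGCGC or TTGGCGC on either strand, and overlapping matches were merged. The first 3 were chosen after the values were seen. RefSeq promoters on GRCm38.p6, from 250 bases before to 50 bases after the start, were found for 25 of the 31 genes. The authors' build is mm9, and none of their values is tied to these coordinates. In the sequences below, 5′ to 3′ on the gene's own strand, capitals mark the E2F-like motif.
Brca1 (chr11:101551906-101552205, minus strand): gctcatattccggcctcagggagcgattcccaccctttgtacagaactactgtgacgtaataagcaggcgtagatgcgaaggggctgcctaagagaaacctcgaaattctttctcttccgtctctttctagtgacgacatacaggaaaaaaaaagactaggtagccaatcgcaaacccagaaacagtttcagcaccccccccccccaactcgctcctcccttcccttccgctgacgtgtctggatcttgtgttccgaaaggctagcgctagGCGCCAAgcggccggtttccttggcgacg
Clspn (chr4:126556730-126557029, plus strand): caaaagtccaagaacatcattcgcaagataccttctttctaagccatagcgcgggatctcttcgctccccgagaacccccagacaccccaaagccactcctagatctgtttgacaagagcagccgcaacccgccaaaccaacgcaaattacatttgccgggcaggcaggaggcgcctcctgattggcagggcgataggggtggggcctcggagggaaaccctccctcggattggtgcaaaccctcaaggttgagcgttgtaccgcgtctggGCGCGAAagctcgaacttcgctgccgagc
Topbp1 (chr9:103305077-103305376, plus strand): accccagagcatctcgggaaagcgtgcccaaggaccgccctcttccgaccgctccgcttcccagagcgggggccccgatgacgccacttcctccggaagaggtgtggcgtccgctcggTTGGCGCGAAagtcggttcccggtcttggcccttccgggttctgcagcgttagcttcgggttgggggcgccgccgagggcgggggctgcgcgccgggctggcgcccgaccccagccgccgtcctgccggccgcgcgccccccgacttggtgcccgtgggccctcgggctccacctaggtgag
Atrip (chr9:109074075-109074374, minus strand): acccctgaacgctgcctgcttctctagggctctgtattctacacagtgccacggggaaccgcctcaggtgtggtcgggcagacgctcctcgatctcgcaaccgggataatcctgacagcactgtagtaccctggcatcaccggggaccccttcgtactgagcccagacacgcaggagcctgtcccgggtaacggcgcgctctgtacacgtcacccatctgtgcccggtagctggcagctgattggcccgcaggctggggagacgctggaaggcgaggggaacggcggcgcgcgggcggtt
In Brca1 and Clspn the motif covers bases 272 to 278 of the 300, just downstream of the start at base 251. In Topbp1 overlapping matches on both strands cover bases 119 to 128, and Atrip has no match. The other 3 genes were chosen for holding the motif and Atrip for its KrasT change, so they cannot be compared for it. In MycT the Atrip mean was also 1.92-fold lower after doxycycline. The motif was found in 6 of the 25 genes (Brca1, Brip1, Clspn, Fancm, Rad51c and Topbp1), 24.0%, against 8.11% of 9614 genes tested in MycT and 4.47% of all 27025 genes with a promoter. Rad51c was not tested in MycT, so the 25 genes are not limited to tested genes as the 9614 are. A CCAAT box (CCAAT on either strand) was found in 15 of the 25 genes, 60.0%, against 42.6% of the genes tested. The CHR-like motif TTTGAA on either strand was found in 2 of the 25, 8.0%, against 14.5%. Rad51ap1, Rad54l, Chek1 and Blm, which were among the largest falls, hold no E2F-like match in this window. Whether any of these motifs has a part in the changes was not tested.

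The second comparison asks the same of KrasT tumours. The mean level was under 1 FPKM for 18 of the 31 genes after doxycycline and for 13 of the 31 genes untreated, and 14 of the 31 reached 1 FPKM in at least 3 libraries and were tested. Limma called 2 of the 14 as lower, Rad18 and Eme1, and 0 as higher, where 8.25% of all 12696 tested genes were called lower and 8.46% higher. At 2 of 14 genes the count called lower was near the share of all genes. At an unadjusted limma p under 0.05, 2 of the 14 were lower and 1, Fancc, was higher, against 2375 and 1936 of all 12696 genes tested. Without a low-value filter limma called 0 of the 31 genes, with 4.55% of all genes called lower and 6.3% higher. Under median-ratio scaling, which moved the median change of all genes to 0.01 against -0.10 as deposited, 701 genes were called lower and 1150 higher, against 1047 and 1074. Over all 31 genes, the doxycycline values lay wholly below the untreated ones for 7 genes and wholly above for 1, and 16.6% and 19.7% of all genes with a nonzero value did so. The median change of all 31 genes without a filter was -0.15, against 0.02 for all genes with a nonzero value.

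Rad18 had the largest change of the list in KrasT. It had 1.35, 0.864 and 0.497 FPKM in doxycycline replicates 1, 2 and 3, against 3.22, 7.08 and 14.0 FPKM in untreated replicates 1, 2 and 3. The untreated values spread widely, yet all lay above the doxycycline values. Limma gave a log2 change of -2.09 ± 0.48 (SE, adjusted p = 0.0324). Eme1 had 1.70, 1.17 and 0.844 FPKM after doxycycline and 3.58, 3.81 and 3.38 FPKM untreated, with groups far apart and a narrow spread within each. For Eme1 limma gave -1.05 ± 0.25 (SE, adjusted p = 0.0352). Of 6 fits with a library removed, both calls were kept in 1, that without untreated replicate 1 (adjusted p = 0.00592 for Rad18 and 0.0269 for Eme1), which called 17.6% of all genes lower. Both were lost in the other 5, where the lowest adjusted p was 0.0646 for Rad18 and 0.0517 for Eme1. Their group means were 8.94-fold and 2.90-fold lower after doxycycline.

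Brca1, Brca2, Bard1 and Blm were too low for the KrasT filter but had doxycycline values wholly below the untreated ones. Brca1 had 0.550, 0.337 and 0.144 FPKM after doxycycline and 1.64, 1.48 and 0.862 FPKM untreated, and Blm had 0.604, 0.463 and 0.552 FPKM against 1.84, 0.806 and 1.89 FPKM. In the limma fit without a filter their adjusted p was 0.0540 and 0.106. Brca2 had 0.390, 0.422 and 0.454 FPKM after doxycycline and 0.580, 0.630 and 0.670 FPKM untreated, and Bard1 had 0.374, 0.270 and 0.118 FPKM against 1.16, 0.411 and 0.464 FPKM, with limma adjusted p of 0.160 and 0.216 in that fit. Msh6 also did not overlap, with 5.72, 3.94 and 5.01 FPKM after doxycycline and 6.12, 7.11 and 6.97 FPKM untreated (-0.40 ± 0.25 SE, limma adjusted p = 0.311). Some genes that were much lower in MycT did not differ so in KrasT libraries. Rad51ap1 had 0.764, 1.12 and 0.535 FPKM after doxycycline and 2.64, 0.758 and 0.737 FPKM untreated, where untreated replicate 1 alone was high. Rad54l had 0.705, 0.506 and 0.245 FPKM against 0.744, 0.493 and 0.133 FPKM, and Chek1 had 0.572, 0.732 and 0.552 FPKM against 1.44, 0.759 and 0.612 FPKM, with overlapping groups. Untreated replicate 1 was the highest of the 3 untreated libraries for 19 of the 31 genes, 61.3%, against 45.9% of all genes tested.

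Several KrasT genes had higher means after doxycycline. Fancc had 4.46, 11.6 and 7.14 FPKM in doxycycline tumours and 4.80, 2.55 and 1.64 FPKM in untreated tumours, a log2 change of 1.12 ± 0.43 (SE) that did not pass (limma adjusted p = 0.120). Without untreated replicate 1, the highest untreated library, the change was 1.43 and passed (limma adjusted p = 0.0373), in a fit that called 15.6% of all genes higher. Atm was the gene whose doxycycline values all lay above the untreated ones, with 2.23, 1.99 and 1.92 FPKM against 1.61, 1.46 and 1.03 FPKM (0.37 ± 0.23 SE, limma adjusted p = 0.303), though its change was -0.22 under quantile normalization. Timeless had 1.46, 1.31 and 1.99 FPKM after doxycycline and 1.06, 1.35 and 0.635 FPKM untreated (0.36 ± 0.25 SE, limma adjusted p = 0.351), with overlapping groups and a change of -0.28 under quantile normalization. Its partner Tipin had 10.3, 15.6 and 9.56 FPKM against 31.9, 11.2 and 12.5 FPKM, with untreated replicate 1 again the highest. Of the others tested, Topbp1 (-0.65), Xrcc2 (-0.28), Atrip (-0.02), Rad50 (0.01), Atr (0.15), Nbn (0.19) and Chek2 (0.23) had limma adjusted p from 0.192 to 0.992, and Rad50, Atr and Chek2 turned to -0.34, -0.40 and -0.24 under quantile normalization. Of the genes too low to test, Brip1, Palb2, Rad51c, Exo1, Fanca, Fancb, Fancd2, Fanci, Fancm and Clspn had overlapping groups, with means between 0.134 FPKM (Exo1) and 0.932 FPKM (Fancm) after doxycycline and between 0.275 FPKM (Rad51c) and 1.08 FPKM (Palb2) untreated.

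**Figure D2:**
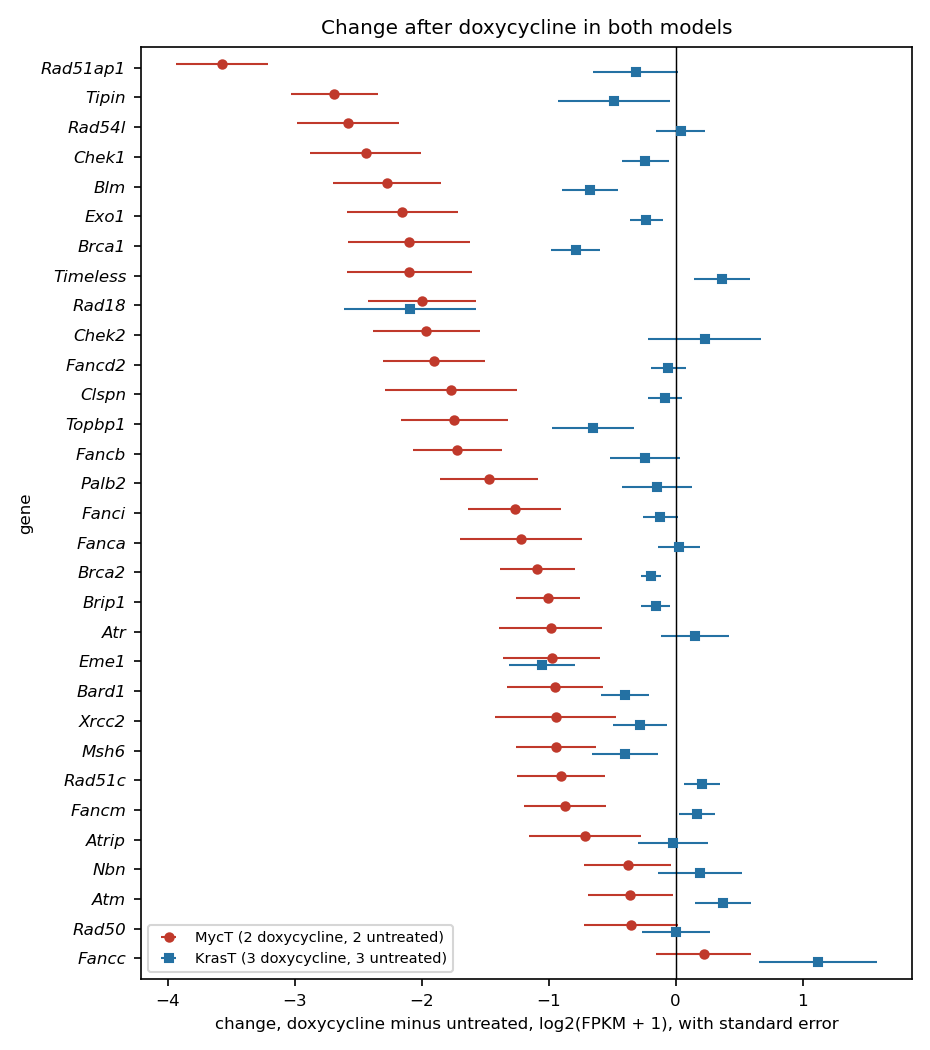
Change after doxycycline (doxycycline minus untreated, log2(FPKM + 1), bars are limma standard errors from the fit without a low-value filter) for the 31 genes in MycT (circles) and KrasT (squares), sorted by the MycT change. The MycT changes run from -3.57 (Rad51ap1) to 0.22 (Fancc), while most KrasT changes lie near 0 and those of Rad18 and Eme1 lie beside their MycT values.

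The third comparison asks whether the change after doxycycline differed between the models. The change was more negative in MycT than in KrasT for 29 of the 31 genes without a filter, a count with no share over all genes beside it. Of the 31 genes, 13 had an untreated KrasT mean under 1 FPKM, where a pseudocount of 1 leaves little room for a fall. Among the 14 genes tested in both tables the change was more negative in MycT for 12, against 50.3% of all 12073 genes tested in both. By limma's interaction term, 0 of the 14 genes passed, with 0.24% of all genes called, and 4 had an unadjusted p under 0.05, 28.6% of the 14 against 19.9% of all genes. The 4 were Timeless, Chek2, Tipin and Atr. Timeless had the largest difference, 2.46 ± 0.47 (SE, KrasT change minus MycT change, limma adjusted p = 0.0670), followed by Tipin with 2.20 ± 0.64 (adjusted p = 0.120) and Chek2 with 2.19 ± 0.62 (adjusted p = 0.112). Without KrasT untreated replicate 1 these 3 genes passed, with limma adjusted p of 0.0223 for Timeless and 0.0165 for Tipin and for Chek2. In that fit 12.6% of all genes were called, against 0.24% with all libraries. Timeless also passed without the unnumbered library (limma adjusted p = 0.0292), where 4.41% of all genes did. Without a low-value filter 1 of the 31 genes passed, Rad54l, with a difference of 2.62 ± 0.37 (SE, limma adjusted p = 0.0334), where 0.475% of all genes did. Rad54l averaged 0.457 FPKM in untreated KrasT tumours, so with a pseudocount of 1 a large fall could not show there. In MycT none of its doxycycline libraries reached 1 FPKM. Rad51ap1 had 3.26 ± 0.57 (SE) in that fit and missed the threshold (limma adjusted p = 0.0608). For Rad18 and Eme1 the differences were -0.10 ± 0.69 and -0.08 ± 0.40 (SE), with limma adjusted p of 0.959 and 0.941, and both turned sign when some libraries were left out.

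**Figure D3:**
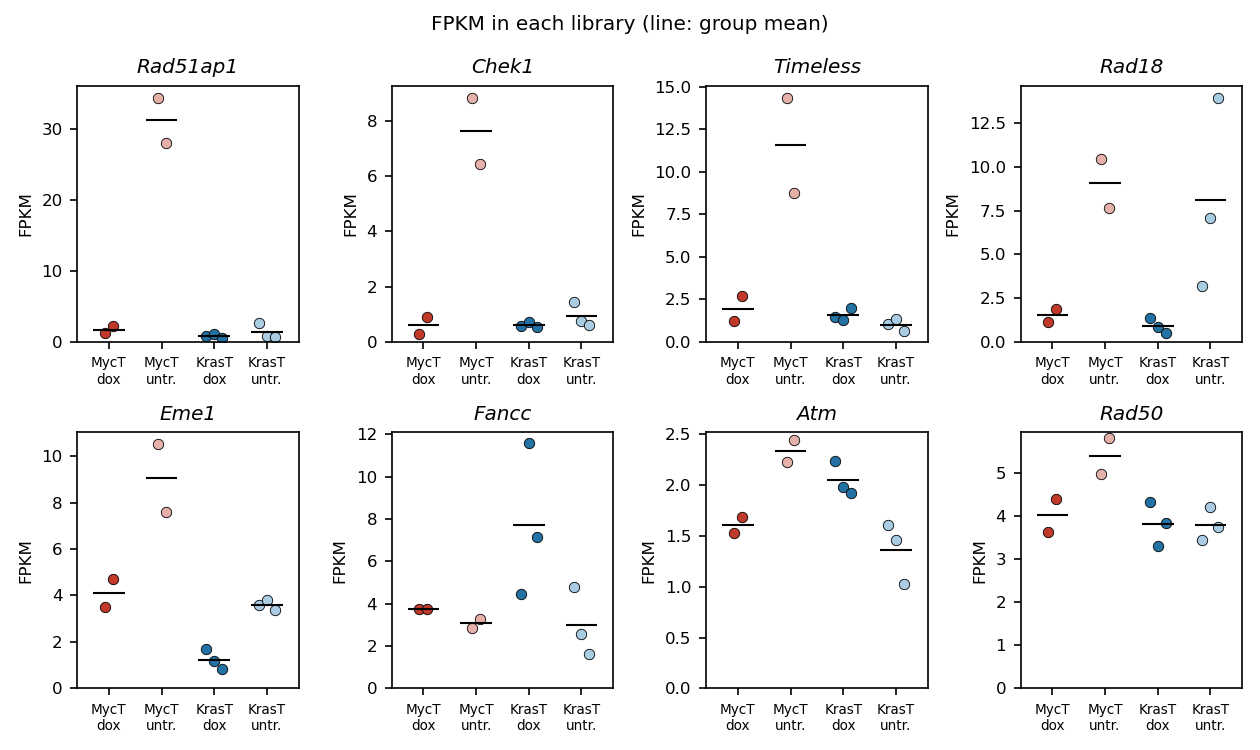
FPKM in each library (points) with the group mean (line) for 8 genes, doxycycline left of untreated within each model, each panel with its own axis from 0. Rad51ap1, Chek1 and Timeless are high in untreated MycT libraries only, Rad18 and Eme1 are lower after doxycycline in both models, and Fancc, Atm and Rad50 are not lower after doxycycline in KrasT.

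Levels were also set side by side between models, though the 2 tables may have been scaled apart and no test was made across them. Without doxycycline, the MycT libraries lay above every KrasT library for 27 of the 31 genes, and for 17.6% of all genes tested in both tables. The ratio of the untreated MycT to the untreated KrasT mean had a median of 4.31 over the 31 genes, from 1.03 for Fancc to 22.6 for Rad51ap1, against 0.838 over all genes. After doxycycline the ratio of means had a median of 1.23. The MycT libraries then lay above every KrasT library for 5 of the 31 genes and below for 5, against 6.2% and 25.4% of all genes. Rad54l, for example, averaged 9.27 ± 1.81 FPKM (SD, n = 2) in untreated MycT and 0.457 ± 0.307 FPKM (SD, n = 3) in untreated KrasT tumours, but 0.712 ± 0.206 (SD, n = 2) and 0.485 ± 0.230 FPKM (SD, n = 3) in the doxycycline tumours of MycT and KrasT. Untreated levels of Rad18 overlapped between the tables, at 9.06 ± 2.00 FPKM (SD, n = 2) in MycT and 8.09 ± 5.44 FPKM (SD, n = 3) in KrasT. Fancc, Nbn and Atrip were the other genes whose untreated ranges overlapped between models.

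The rest of the repair pathways was read from lists. In MycT the joint limma fit called lower 10 of 23 tested genes of homologous recombination, 3 of 9 of the Fanconi pathway, 4 of 6 of mismatch repair and 4 of 16 of the checkpoint, and 0 in any of these lists as higher. Among those called, Rad54b, Gen1 and Rmi2 in recombination and Pms1 in mismatch repair entered the test only through the untreated group, so they had to differ. The MycT fit alone called 0 in each list, and 14, 4, 4 and 8 genes were lower at an unadjusted p under 0.05. In that fit the genes of smallest p were Rpa3 (-3.19) in recombination, Ube2t (-4.05) and Usp1 (-2.16), Pms2 (-1.96) and Pms1 (-1.35), and Dtl (-3.33) and Wdhd1 (-2.47). Ube2t, the E2 enzyme that ubiquitinates FANCD2, averaged 2.87 ± 0.456 FPKM after doxycycline and 63.1 ± 8.26 FPKM untreated (SD, n = 2 each). Other repair routes were also read. In end joining 1 of 10 genes was lower in the joint fit, with a median change of -0.25. In base and nucleotide excision repair 5 of 27 were lower, with a median of -0.83. The genes of smallest p with MycT libraries alone were Xrcc6 (-1.53) and Nhej1 (-0.96) in end joining and Neil3 (-2.49) and Parp1 (-1.53) in excision repair, and Nhej1 and Parp1 did not pass the joint fit (limma adjusted p = 0.0684 and 0.0545). The difference between these lists was not tested, and all of them are set against 12.9% of all genes.

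In KrasT, limma called 8.25% of all genes tested as lower and 8.46% as higher. It called 1 of 19 other recombination genes, Sfr1, as lower (-1.21 ± 0.24 SE, adjusted p = 0.0223), and 1 of 26 excision repair genes, Ddb1, as lower (-1.29 ± 0.22 SE, adjusted p = 0.0170). It called 0 of 9 Fanconi, 0 of 5 mismatch repair, 0 of 14 checkpoint and 0 of 10 end joining genes, of which 1, 0, 0 and 1 had an unadjusted p under 0.05. The genes of smallest p were Ube2t (-1.32) and Fancg (0.73), Mlh3 (0.61) and Msh3 (-0.34), Trp53bp1 (0.66) and Rhno1 (-0.52), and Xrcc5 (-1.03) and Xrcc4 (-0.58), with limma adjusted p from 0.0762 to 0.391.

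Many mitosis genes were lower after doxycycline in both models. In MycT the limma fit alone called 0 of 30 DNA replication and 0 of 22 mitosis genes, all of which were lower at an unadjusted p under 0.05. The joint limma fit called 26 of 30 DNA replication and 22 of 22 mitosis genes lower, against 12.9% of all genes, with median changes of -2.29 and -3.25. Among those called, Cdc6 and Orc1 entered the test only through the untreated group. In the fit of MycT libraries alone the genes of smallest p were Prim1 (-3.45) and Rfc4 (-3.52) for replication, and Bub1 (-3.20) and Ttk (-2.84) for mitosis. The summed mitosis genes had 51.1 and 173 FPKM after doxycycline and 1209 and 1470 FPKM untreated. In KrasT, limma called 3 of 26 replication genes lower, among them Rrm2 (-3.14) and Prim2 (-1.02), and 11 of 19 mitosis genes, led by Ube2c (-2.45) and Ccnb1 (-2.34). Over all genes tested in KrasT it called 8.25% lower. The summed mitosis genes there had 30.9 to 54.1 FPKM after doxycycline and 145 to 323 FPKM untreated. MycT doxycycline replicate 2 was above replicate 1 for 28 of the 31 repair genes, 90.3%, against 53.8% of all genes tested. In KrasT the difference between the mitosis and the repair lists was not tested.

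Markers of other cells also moved. All 12 fibroblast genes had positive changes in MycT, 7 of them past the joint limma fit, with a summed level of 1854 and 2688 FPKM after doxycycline and 43.6 and 541 FPKM untreated. In KrasT 8 of 12 passed as higher, with 4149 to 9885 FPKM after doxycycline and 488 to 1692 FPKM untreated. Endothelial genes passed as higher in 7 of 10 (MycT, joint fit) and 8 of 10 (KrasT), macrophage genes in 2 of 11 and 3 of 12, and lymphocyte genes in 7 of 11 and 1 of 6. Of the defining markers only the acinar gene Amy2a5 was at 0 in every MycT library, and 0 of 8 acinar genes passed in either model. The acinar sum was 133 to 1761 FPKM after doxycycline and 103 to 385 FPKM untreated in MycT, and 145 to 17910 FPKM after doxycycline and 26.2 to 395 FPKM untreated in KrasT. Adipocyte and muscle genes passed as higher in 2 of 9 (MycT, joint fit) and 4 of 10 (KrasT). Over all genes tested, 8.2% (MycT, joint fit) and 8.46% (KrasT) passed as higher, and 8.25% passed as lower in KrasT. Of the MycT marker calls, Pdgfra, Tek, Vwf, Cd3e, Gzma, Ncr1, Ms4a1 and Car3 entered the test only through the doxycycline group, so they had to differ. Skeletal muscle genes were high in single doxycycline libraries. Acta1, the muscle actin, had 1936 FPKM in MycT doxycycline replicate 1 and 1.96 FPKM in replicate 2, against 0.581 and 0.228 FPKM untreated, and in KrasT it had 12.1, 1544 and 95.9 FPKM after doxycycline and 144, 0.588 and 0.520 FPKM untreated. MycT doxycycline replicate 1 is also the library with the lower value of its group for 28 of the 31 repair genes, and the part of its muscle RNA in this was not tested. Ductal epithelium genes passed as higher in 1 of 12 in MycT (joint fit), and 2 of 12, Krt8 and Krt18, were lower in KrasT. The part of cell division and of tissue makeup in the repair gene values was not tested. In bulk tissue, fewer cells of a kind and less RNA per cell cannot be told apart.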

How the data were processed

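RNA sequencing values came from 2 tables, 1 per tumour model, each with 1 column per library and 23951 rows. They hold FPKM as the authors deposited them. Per the labels' protocols, total RNA of frozen tumours was made into libraries with a TruSeq RNA kit and sequenced on a HiSeq2000. The tools named are cutadapt and TopHat, and the build mm9, per the submitters' processing notes. Neither the quantifying program, its annotation nor strand use is stated in these sources. Depth in reads is unknown.

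Columns were matched to samples by the number in their names. Rows whose symbol had turned into a date (27 per table) were left out. Genes with at least 1 FPKM in at least 3 KrasT or 2 MycT libraries were tested on log2(FPKM + 1), each table by itself. The test was limma's two-sided moderated test with a mean-variance trend (limma 3.58.1, R 4.3.3), adjusted by Benjamini-Hochberg over all genes tested, with a threshold of 0.05. The log scale with a pseudocount of 1 understates changes of low genes. An interaction term over both tables tested whether the change differed by model. The joint fit used all 10 libraries on the genes tested for that model. Sequences came from RefSeq (GRCm38.p6).

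The members, lists and tests were chosen with earlier results of these data known. All 31 members are named. Of the other repair, replication and mitosis lists, up to 2 rises and 2 falls past the test are named per model, or else the 2 genes of smallest p. A gene that this rule names in MycT is not reported here. The promoter rule asked for an E2F-like motif in members called in KrasT or, if none was called, in those of largest change. Neither called member, Rad18 or Eme1, holds the motif. The 3 promoters shown beside Atrip were instead chosen by their MycT change, after the values were seen. The steps were tested on simulated data. Alternatives were a pseudocount of 0.1, no low-value filter, a mean of at least 5 FPKM, median-ratio scaling, quantile normalization, robust spread, no trend, library weights, the joint fit and leaving out each library. Leaving out each library from the joint fit was added after seeing the data. Plots used matplotlib 3.10.9 (Python 3.11.15).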

Additional observations from a re-analysis of the deposited data

How the results depend on the processing

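The count of 2 KrasT genes called lower was 0 without a low-value filter, 0 when genes needed a mean level of 5 FPKM or more (which leaves both called genes out of the test) and 0 to 2 when 1 library was left out. The count of KrasT genes called higher was 1 with library weights and 0 to 1 when 1 library was left out. The count of MycT genes called lower was 20 in the joint fit, which has more libraries to estimate the spread, against 0 with MycT libraries only, and was 0 in each of the 4 MycT fits that left out a library. Within the joint fit it was 6 to 22 when 1 of the 10 libraries was left out. The count of genes whose change differed between models was 1 without a filter, 4 with library weights and 0 to 3 when 1 library was left out. The KrasT median of the tested genes was -0.01 as reported by the fit, -0.15 without a filter, -0.40 with a mean of at least 5 FPKM, 0.10 under median-ratio scaling, -0.34 under quantile normalization and -0.08 to 0.02 with 1 library left out, so its sign depended on the setting. The MycT median of the tested genes was -1.37, with -2.09 at a pseudocount of 0.1, -1.96 with a mean of at least 5 FPKM, -1.73 under quantile normalization and -1.64 to -1.20 with 1 library left out, and it was negative in each of these.

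Single KrasT changes that turned sign were all of genes that did not pass. Under quantile normalization these were Rad50 (-0.34), Chek2 (-0.24), Atm (-0.22), Atr (-0.40) and Timeless (-0.28), with Fancc (-0.14) in MycT. With library weights they were Nbn (-0.087), Rad50 (-0.040) and Atrip (0.16), and under median-ratio scaling Atrip (0.083). With 1 library left out, Rad50 ran from -0.069 to 0.085, Chek2 from -0.10 to 0.65 and Atrip from -0.13 to 0.10. The difference between models turned sign for Rad18 under median-ratio scaling (0.029) and quantile normalization (0.17), and with 1 library left out it ran from -0.56 to 0.36 for Rad18 and from -0.29 to 0.14 for Eme1. The cause of these changes was not tested. No paired analysis was possible because the labels give each tumour its own number and no number is shared between groups. Over all genes, calls numbered 2121 in KrasT, but 1340 with a mean of 5 FPKM or more, 1078 under quantile normalization, 5935 with library weights and 113 to 4223 with 1 library left out. In MycT they numbered 5, but 2713 in the joint fit, and 29 genes differed between models, but 1475 did with library weights. FPKM tables carry no counts, so counting error could not be set beside low values.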
